A study of Mus musculus with 12 samples.

Results

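The 39 mitosis genes described here were the rows of the deposited expression table whose symbols belong to a list of genes that carry cells through division, 39 of the 55335 genes in the table. All 39 symbols were found once, and all 39 passed the filter on low values, which kept the 12622 genes with 3 or more of the 12 libraries at 1 FPKM or above. FPKM corrects the fragments of a gene for its length and for the mapped fragments of the library. Libraries can still differ in scale, and factors from median-ratio scaling ran from 0.841 to 1.19. Comparisons between groups therefore depend in part on scaling. The libraries were made from bone marrow-derived macrophages (BMDMs), grown from the marrow of 8-week-old C57BL/6 mice for 7 days with macrophage colony-stimulating factor. Each genotype, wild-type and Nlrp3-/-, was cultured without stimulus (control) and with LPS+ATP, which gave 4 groups of 3 libraries. Lipopolysaccharide (LPS) is a bacterial wall component that primes cells for assembly of the NLRP3 inflammasome, and extracellular ATP is the trigger. The sample labels give LPS for 4 hours followed by ATP for 30 minutes, whereas the methods of the study give 12 hours and 2 hours, and the values below cannot be tied to either schedule. The Nlrp3-/- mice lacked the gene in every cell, not in macrophages alone. Nothing in the labels says whether the 3 libraries of a group came from separate mice or cultures, so the p-values measure the spread between these libraries, which may be technical.

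Cells enter mitosis when the kinase Cdk1, bound to B-type cyclins, is switched on, and they leave it when the anaphase-promoting complex marks those cyclins and securin for destruction. Between the 2 steps, kinetochores tie chromosomes to spindle microtubules, the spindle checkpoint holds anaphase back until every chromosome is attached, and motor proteins build the central spindle on which the daughter cells separate. Transcripts of these proteins are made mainly in the later part of the cell cycle and are low in resting cells, so their summed level is a common readout of cycling cells in a culture. BMDMs divide in response to macrophage colony-stimulating factor, and LPS is known to halt their division.

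Many mitosis genes share a promoter layout of CCAAT boxes, which the factor NF-Y can bind, and a cell cycle homology region (CHR), which the DREAM and MuvB complexes can bind. RefSeq windows of 300 bases on GRCm38.p6, from 250 bases before to 50 bases after the gene start, were held for 34 of the 39 genes and searched on both strands. The box was searched as CCAAT. The CHR was searched in its usual form, which is written TTTGAA, and also in the less common form that a few of these genes carry in their promoters, which is written TTCGAA. The box was in 25 of the 34 windows (73.5%) and in 41.1% of the windows of 27025 genes. The usual CHR was in 25 of the 34 (73.5%) and in 20.2% of all genes, and the rarer form in 3 (8.82%) and 1.80% of all genes. CCAAT and either form of the CHR stood together in 23 of the 34 windows (67.6%) and in 8.61% of all genes. A match of this kind is a description of the letters and not of a bound site. The stretches below, 5′ to 3′ on the strand of the gene and ending at or shortly before the gene start, are those of a B-type cyclin, the anaphase activator, its ubiquitin-conjugating enzyme, a topoisomerase, a spindle motor and the one gene with the layout whose transcript did not fall in wild-type cells. Capitals mark the CCAAT box and the CHR in either direction (ATTGG is the box read on the other strand, and the usual form of the CHR then reads TTCAAA).
Ccnb2, chr9:70421555-70421704, minus strand: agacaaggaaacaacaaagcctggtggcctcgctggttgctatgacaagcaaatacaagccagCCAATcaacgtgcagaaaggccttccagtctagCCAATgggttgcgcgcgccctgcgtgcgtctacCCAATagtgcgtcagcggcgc
Cdc20, chr4:118437353-118437493, minus strand: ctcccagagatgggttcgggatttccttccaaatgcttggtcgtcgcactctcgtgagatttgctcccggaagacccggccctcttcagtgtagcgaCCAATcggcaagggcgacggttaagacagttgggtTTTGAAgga
Ube2c, chr2:164769779-164769897, plus strand: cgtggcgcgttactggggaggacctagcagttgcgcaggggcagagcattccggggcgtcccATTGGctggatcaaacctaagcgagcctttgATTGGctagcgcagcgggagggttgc
Top2a, chr11:99024190-99024339, minus strand: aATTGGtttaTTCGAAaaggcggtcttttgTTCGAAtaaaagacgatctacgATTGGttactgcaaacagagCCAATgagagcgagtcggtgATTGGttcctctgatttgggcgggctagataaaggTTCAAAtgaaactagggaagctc
Kif11, chr19:37376232-37376381, plus strand: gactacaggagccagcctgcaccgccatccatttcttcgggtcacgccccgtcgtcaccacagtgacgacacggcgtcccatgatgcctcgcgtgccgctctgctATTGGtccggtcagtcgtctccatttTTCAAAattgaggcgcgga
Mki67, chr7:135716380-135716529, minus strand: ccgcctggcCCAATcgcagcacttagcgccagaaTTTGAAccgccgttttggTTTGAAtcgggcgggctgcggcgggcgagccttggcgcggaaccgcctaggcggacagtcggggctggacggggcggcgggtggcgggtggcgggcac
Over its whole window Mki67 held 3 CCAAT boxes and 2 CHR elements, and Ccnb2 held 3 and 2 as well. The windows of Birc5, Mad2l1, Melk, Nuf2, Nusap1 and Pttg1 held neither motif.

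**Figure D1:**
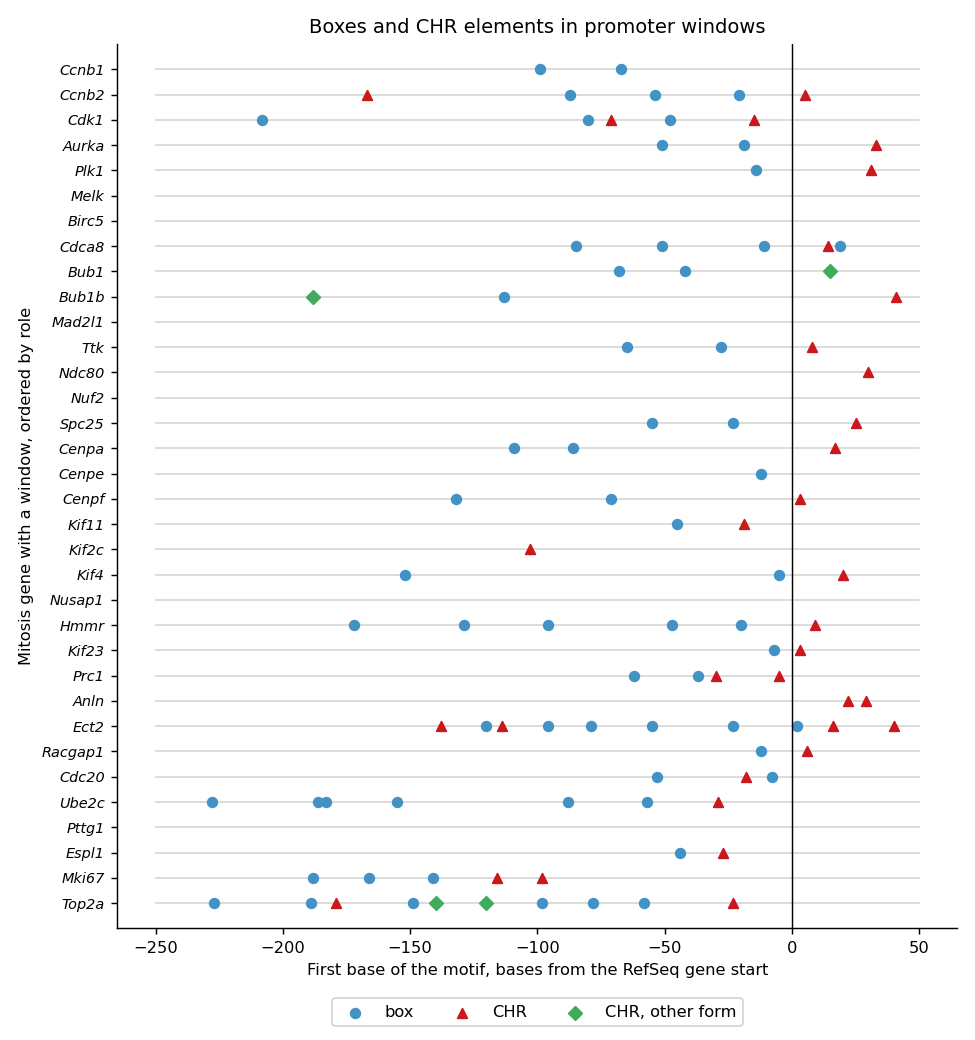
Each row is 1 of the 34 mitosis genes with a RefSeq window, the x axis is the distance in bases of a motif's first base from the gene start, circles stand for the CCAAT box, triangles for the usual CHR and diamonds for its rarer form. In 23 rows a circle and a CHR symbol stand in the same window, and 6 rows are empty. Ect2 and Prc1 had more than 1 window, overlapping and with different gene starts, and their motifs are drawn for each start.

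The genotype labels of the 12 libraries held, and their depth could be judged only roughly. The deposited table gives no read numbers. Judged by the spacing of the lowest values above 0, depth differed by a factor of at most 1.21 between libraries. This estimate set each library against replicate 1 of wild-type control and left out ratios far from 1. It could therefore not have shown a large difference in depth. Nlrp3 was between 9.24 and 33.7 FPKM in the 6 wild-type libraries and listed at 0 in the 6 Nlrp3-/- libraries. Markers of macrophages summed to between 11120 and 21160 FPKM in every library (8 genes, Csf1r, Adgre1 and Cd68 among them). Most of each sum was Lyz2, whose group means ran from 9309 to 18460 FPKM. The genotypes differed in more than Nlrp3. All 6 Nlrp3-/- libraries had Xist, the RNA of the inactive X chromosome, at 32.8 FPKM or more and the Y-linked Uty, Kdm5d, Eif2s3y and Ddx3y at 0, whereas Xist did not exceed 0.0416 FPKM in wild-type libraries, so that genotype and sex of the mice cannot be told apart. Of 9 tested rows of macrophage markers, 5 were lower and 0 higher in Nlrp3-/- than in wild-type control (limma, adjusted p under 0.05). Of all genes, 14.5% were lower and 33.3% higher at that limit. Cd68 had means of 877 against 1450 FPKM, Csf1r 164.5 against 253.1 FPKM and Adgre1 184 against 237 FPKM. The 8 fibroblast markers summed to between 163 and 194 FPKM in wild-type and between 928 and 1206 FPKM in Nlrp3-/- libraries. Granulocyte and precursor markers (12 genes) summed to between 349 and 386 FPKM in wild-type control, 329 and 344 in wild-type LPS+ATP, 1908 and 1954 in Nlrp3-/- control and 710 and 719 in Nlrp3-/- LPS+ATP. The stimulated sums include Lcn2, whose mean rose from 9.96 to 218 FPKM in wild-type and from 43.2 to 208 FPKM in Nlrp3-/- cells. Of the 11 tested rows of these markers, 10 were lower with LPS+ATP in each genotype (limma, adjusted p under 0.05), and Lcn2 was higher. Of all genes, 53.1% were lower at that limit in wild-type and 53.8% in Nlrp3-/- cells. Of the defining T cell markers, Cd3d and Cd3e were at 0 in wild-type LPS+ATP and the 4 T cell genes summed to at most 0.669 FPKM in any library. In bulk libraries, fewer cycling cells and less mitotic RNA per cell cannot be told apart.

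LPS+ATP lowered most mitosis genes in wild-type BMDMs. The summed level of the 39 genes went from 230 to 234 FPKM in the control libraries to 68.7 to 69.4 FPKM after stimulation, and the median gene from between 4.20 and 4.55 FPKM to between 0.620 and 0.684 FPKM. Much of the stimulated sum came from Pttg1 and Mki67, which did not fall and had means of 17.1 and 16.1 FPKM there. Of the 39 genes, 34 fell and 1 rose past both limits (an adjusted p under 0.05 by the Benjamini-Hochberg method and a change by 1 or more on the log2 scale), where 11.2% of all genes tested fell and 8.25% rose. Without the limit on the fold, 37 fell, against 53.1% of all genes. The median log2 fold change of the 39 genes was -1.60 on the log2(FPKM + 1) scale, beside -0.26 over all genes tested. This scale understates the change of genes at low FPKM, and 30 of the 39 had a mean under 1 FPKM after stimulation, so the share of the control mean that was left is given as well. The median gene kept 13.5% of its control level, and 29 of the 39 kept under 20%.

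On the log2 scale the 3 largest falls were those of Ccnb2, Ccna2 and Cdc20. Ccna2 (cyclin A2, ENSMUSG00000027715, chr3:36564865-36572150 on GRCm38), which partners Cdk1 and Cdk2, was 11.7, 11.4 and 11.5 FPKM in wild-type control and 0.63, 0.779 and 0.905 FPKM with LPS+ATP. Ccnb2 (cyclin B2, ENSMUSG00000032218, chr9:70407692-70421547), the most abundant of the group, was 16.0, 19.4 and 17.4 FPKM in control and 1.29, 1.68 and 1.15 FPKM with LPS+ATP. The control and stimulated libraries lay far apart for both genes, with no overlap. Ccna2 fell by 2.82 ± 0.0608 (SE) on the log2 scale (limma, adjusted p = 4.33e-12) and Ccnb2 by 2.98 ± 0.0849 (adjusted p = 4.54e-11). Ccnb1, the other B-type cyclin, went from between 5.83 and 6.46 to between 0.498 and 0.715 FPKM. Cdk1, their catalytic partner, kept 20.1% of its control level, more than any of the 3 cyclins (6.70% to 10.2%).

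The kinases that act beside Cdk1 fell too. Plk1 (ENSMUSG00000030867, chr7:122159439-122169873), which drives mitotic entry, centrosome maturation and cytokinesis, was 10.1, 10.4 and 10.5 FPKM in control and 0.853, 1.23 and 0.754 FPKM with LPS+ATP, a fall by 2.55 ± 0.0825 (SE) on the log2 scale (limma, adjusted p = 1.36e-10). Aurka, the spindle pole kinase, kept 23.2% and Melk, a kinase of dividing progenitors, 18.7% of the control mean. In the chromosomal passenger complex, which corrects faulty chromosome attachments, Aurkb, Birc5 (survivin) and Cdca8 (borealin) kept between 11.9% and 14.4%. The scaffold of that complex, Incenp, behaved differently from its partners. It was 16.2, 16.9 and 15.5 FPKM in control and 8.97, 9.36 and 9.28 FPKM with LPS+ATP, so that 56.8% was left and the log2 fold change of -0.75 (adjusted p = 7.07e-08) did not reach the limit of 1.

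All 4 genes of the spindle checkpoint had lower levels. Bub1b (BubR1), a part of the inhibitor that restrains the anaphase-promoting complex, was 6.69, 7.20 and 6.97 FPKM in control and 0.936, 0.719 and 0.899 FPKM with LPS+ATP, a fall by 2.10 ± 0.0629 (SE) on the log2 scale (limma, adjusted p = 6.78e-11). Bub1 and Ttk (Mps1), the kinases of the checkpoint, kept 20.3% and 11.9%. The log2 fold change of Ttk, which lay near the limit, was -0.97 without replicate 2 of wild-type LPS+ATP, under the limit of 1. Mad2l1, which binds unattached kinetochores, was 3.47, 2.65 and 3.13 FPKM in control and 1.27, 1.20 and 1.16 FPKM with LPS+ATP (39.3% left), and its log2 fold change of -0.88 did not reach the limit. All 6 centromere and kinetochore genes fell. Cenpa, the histone H3 variant that marks centromeres, was 6.80, 6.99 and 7.14 FPKM in control and 0.330, 0.436 and 0.307 FPKM with LPS+ATP (5.13% left). Cenpf kept 4.55%, Ndc80 and Nuf2, which form the microtubule-binding complex of the kinetochore with Spc25, kept 9.98% and 8.89%, and Spc25 19.1%.

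Among motors and microtubule-associated proteins, 5 of 6 fell. Kif11 (Eg5), the motor that pushes spindle poles apart, kept 8.39% and Kif2c, which takes microtubules down at kinetochores, 8.87%. Tpx2, which activates Aurka on the spindle, was the most abundant of these and the least changed. It was 8.82, 8.09 and 8.09 FPKM in control and 3.96, 3.73 and 3.51 FPKM with LPS+ATP, and the log2 fold change was -0.98, or -1.01 without replicate 1 of wild-type LPS+ATP. All 6 cytokinesis genes fell, between 4.20% (Kif23, of the centralspindlin complex) and 22.0% (Prc1, which bundles central spindle microtubules) being left. Kif20a, which carries the passenger complex to the central spindle, was 9.05, 10.04 and 8.14 FPKM in control and 0.584, 0.698 and 0.684 FPKM with LPS+ATP.

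Anaphase genes moved in both directions. Cdc20 (ENSMUSG00000006398, chr4:118432901-118437352), which activates the anaphase-promoting complex, was 10.5, 10.2 and 10.98 FPKM in control and 0.699, 1.07 and 0.724 FPKM with LPS+ATP, a fall by 2.66 ± 0.083 (SE) on the log2 scale (limma, adjusted p = 9.77e-11). Ube2c, the enzyme that passes ubiquitin to that complex's substrates, and Espl1 (separase), the protease that cuts cohesin, kept 20.5% and 13.3%. Pttg1 (securin, ENSMUSG00000020415, chr11:43420250-43426251), the inhibitor of separase, was 6.71, 6.99 and 6.98 FPKM in control and 16.1, 17.0 and 18.3 FPKM with LPS+ATP. It was the only member that rose in wild-type cells, by 1.20 ± 0.0579 (SE) on the log2 scale (limma, adjusted p = 4.77e-09), to 248% of its control mean. After stimulation Pttg1 was the most abundant of the 39 transcripts in wild-type replicates 2 and 3, and Mki67 in replicate 1.

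Mki67 and Top2a, the genes of chromosome structure, differed from each other. Top2a, which untangles sister chromatids, was 10, 9.40 and 9.81 FPKM in control and 1.48, 1.55 and 1.39 FPKM with LPS+ATP (15.1% left). Mki67 (Ki-67, ENSMUSG00000031004, chr7:135689784-135716361), the coat protein of mitotic chromosomes that is widely used as a marker of proliferation, was 15.6, 16.0 and 15.9 FPKM in control and 16.6, 16.1 and 15.5 FPKM with LPS+ATP. These values overlapped, and the log2 fold change was 0.02 ± 0.0376 (SE, limma, adjusted p = 0.654), the smallest of the 39.

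**Figure D2:**
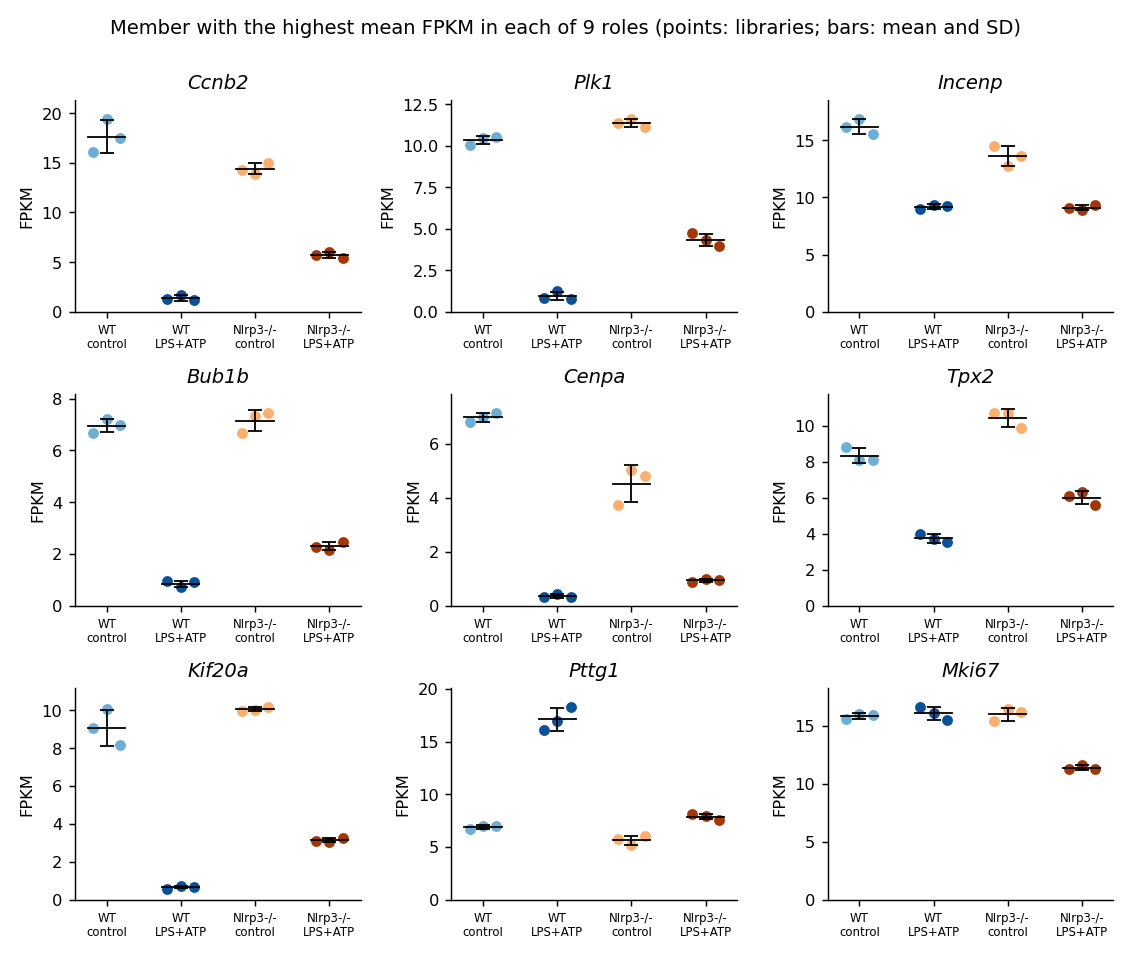
FPKM of the most abundant member of each of 9 roles in the 4 groups; points are libraries (3 per group), horizontal lines the mean and bars the SD. Ccnb2, Plk1, Bub1b, Cenpa and Kif20a drop to between 0.307 and 1.68 FPKM in wild-type LPS+ATP libraries and lie higher in Nlrp3-/- LPS+ATP, Pttg1 rises and Mki67 stays near 16 FPKM in wild-type cells.

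Mitosis genes also stood lower after LPS+ATP in Nlrp3-/- BMDMs, where 37 of the 39 kept a larger share of their control level than in wild-type cells. The summed level of the 39 genes went from between 241 and 246 FPKM in Nlrp3-/- control to between 112 and 114 FPKM with LPS+ATP. Pttg1 and Mki67 had means of 7.88 and 11.4 FPKM in these stimulated libraries. Of the 39 genes, 16 fell past both limits, against 8.21% of all genes, and 38 had a lower level at an adjusted p under 0.05 alone, against 53.8% of all genes. Their median log2 fold change was -0.88, beside -0.24 over all genes. The median gene kept 41.2% of its control level, and 1 gene (Kif23, 18.9%) kept under 20%. The count of 16 depends on scaling and pseudocount: it was 7 with median-ratio scaling, which moved the median of all genes by 0.229 in this comparison and 0.246 in wild-type, and 28 with a pseudocount of 0.1.

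The 3 largest falls in Nlrp3-/- cells were those of Cenpa, Kif20a and Kif11. Cenpa was 3.73, 5.03 and 4.79 FPKM in Nlrp3-/- control and 0.869, 1.00 and 0.933 FPKM with LPS+ATP, a fall by 1.503 ± 0.0837 (SE) on the log2 scale (limma, adjusted p = 2.29e-08). Kif20a was 9.98, 9.99 and 10.2 FPKM and then 3.12, 3.02 and 3.23 FPKM. Kif11 was 4.85, 4.84 and 5.05 FPKM and then 1.08, 1.31 and 1.27 FPKM. None of these groups overlapped. The cyclins stood at higher levels than in wild-type stimulated cells. Ccna2 was 13.2, 12.3 and 12.5 FPKM in Nlrp3-/- control and 4.43, 4.04 and 4.54 FPKM with LPS+ATP, and Ccnb2 was 14.3, 13.9 and 15.0 FPKM and then 5.68, 5.98 and 5.45 FPKM. Plk1 went from 11.4, 11.6 and 11.1 FPKM to 4.71, 4.32 and 3.94 FPKM, and Cdc20 from 12.7, 14.1 and 12.1 FPKM to 3.94, 4.32 and 4.53 FPKM.

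The members that stood apart in wild-type cells did so here in part. Incenp (14.5, 12.7 and 13.6 FPKM, then 9.08, 8.87 and 9.33 FPKM) kept 66.8% and Tpx2 (10.7, 10.7 and 9.85 FPKM, then 6.08, 6.33 and 5.60 FPKM) kept 57.6%. Pttg1 was 5.71, 5.14 and 6.0 FPKM in Nlrp3-/- control and 8.10, 7.94 and 7.60 FPKM with LPS+ATP, and the log2 fold change was 0.43 ± 0.0579 (SE, limma, adjusted p = 4.51e-05), which did not reach the limit of 1. Mki67 was 15.4, 16.4 and 16.1 FPKM in control and 11.3, 11.6 and 11.2 FPKM with LPS+ATP, without overlap, and its log2 fold change of -0.46 ± 0.0376 (SE, adjusted p = 6.67e-07) was the second smallest after that of Pttg1. The third was that of Mad2l1 (-0.50), at 3.36, 3.23 and 3.31 FPKM in control and 2.05, 2.12 and 1.96 FPKM with LPS+ATP. Over the 39 genes, the share left in wild-type and that left in Nlrp3-/- cells had a Spearman's rho of 0.791 (0.755 over 37 genes without Mki67 and Pttg1), a description across genes that were all measured in the same libraries. Members with both promoter motifs (23) and the other 11 with a window had similar medians of the share left, 13.3% and 13.5% in wild-type and 39.6% and 45.5% in Nlrp3-/- cells.

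**Figure D3:**
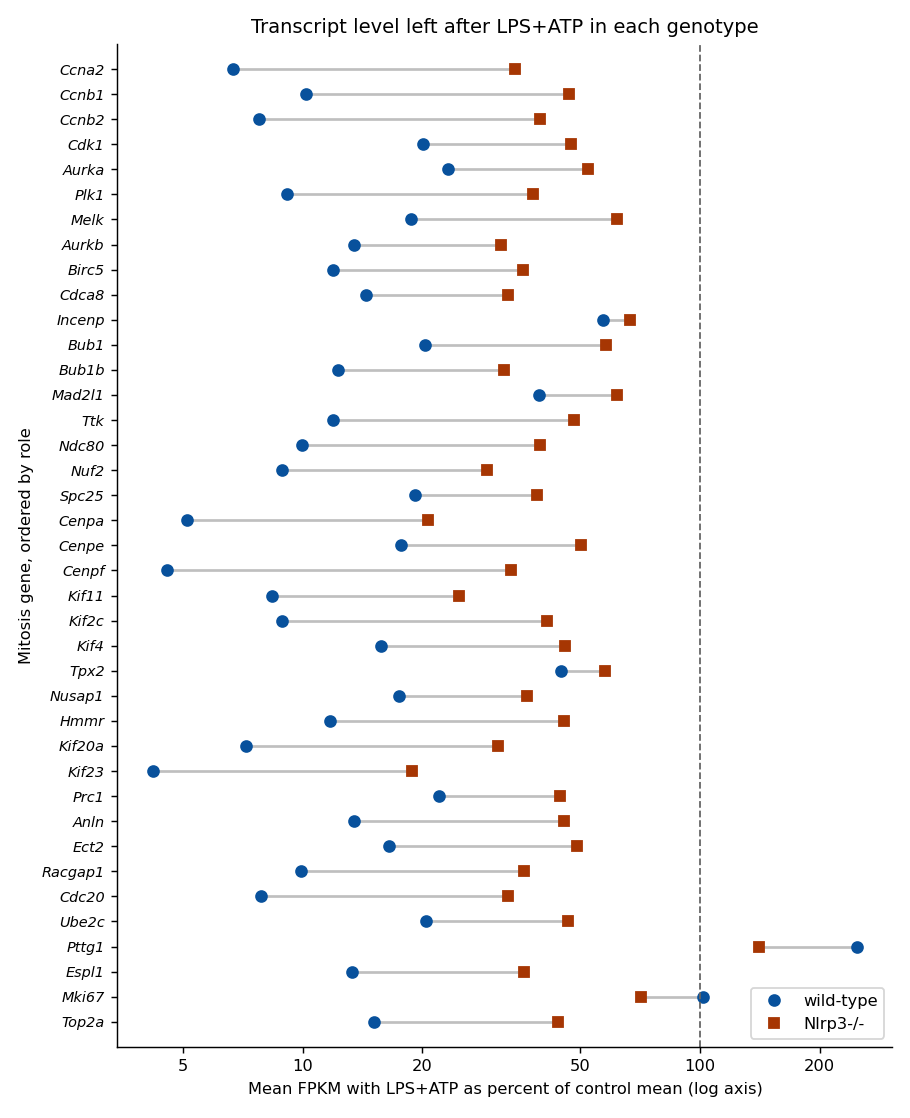
Mean FPKM with LPS+ATP as a percent of the mean in control (log axis) for each of the 39 genes, ordered by role, in wild-type (circles) and Nlrp3-/- cells (squares), with a dashed line at 100%. In 37 genes the square lies to the right of the circle, and for Pttg1 and Mki67 it lies to the left.

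The difference between the 2 responses was tested by the interaction, the log2 fold change in Nlrp3-/- minus that in wild-type. It was positive past both limits in 8 of the 39 genes, where 0.721% of all genes were, and at an adjusted p under 0.05 alone it was positive in 37 and negative in 2, against 14.7% and 13.0% of all genes. The 8 genes were Ccnb2 (1.78 ± 0.12 SE, limma, adjusted p = 1.91e-06), Ccna2 (1.47 ± 0.0861, adjusted p = 7.24e-07), Plk1 (1.33), Cdc20 (1.26), Ccnb1 (1.25), Kif20a (1.18), Cenpa (1.05) and Top2a (1.05). Cenpa was at 0.95 without replicate 1 of Nlrp3-/- control. The 2 negative genes were Pttg1 (-0.77 ± 0.0818, adjusted p = 4.61e-05) and Mki67 (-0.48 ± 0.0531, adjusted p = 6.78e-05). Incenp (0.22), Tpx2 (0.27) and Espl1 (0.37) had the smallest differences on the log2(FPKM + 1) scale. Espl1 was 1.80, 2.02 and 1.67 FPKM in wild-type control and 0.268, 0.190 and 0.271 FPKM with LPS+ATP, against 1.93, 2.18 and 2.03 FPKM and then 0.654, 0.817 and 0.739 FPKM in Nlrp3-/- cells. That left 13.3% and 36.0% of control, and this scale understates changes at such low levels. The median over the 39 genes was 0.69, beside 0.02 over all genes. With a pseudocount of 0.1, which compresses low values less, 31 genes passed both limits, and with TPM, whose values are larger beside the pseudocount of 1, 27 passed.

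Before stimulation the mitosis genes differed little between genotypes. None of the 39 passed both limits in either direction (limma), where 6.02% of all genes were higher and 0.689% lower in Nlrp3-/- cells, and 19 had an unadjusted p under 0.05. At an adjusted p under 0.05 alone, 12 were higher and 6 lower in Nlrp3-/- control, against 33.3% and 14.5% of all genes. The median log2 fold change was 0.10, beside 0.09 over all genes, and it was -0.02 with median-ratio scaling, which moved all genes by -0.12 and turned the sign of 16 members. The largest differences were those of Cenpa, lower by 0.54 ± 0.0837 on the log2 scale (SE, adjusted p = 0.00026), Top2a and Kif23. Top2a was 13.3, 14.8 and 14.1 FPKM in Nlrp3-/- and 10, 9.40 and 9.81 FPKM in wild-type control, a log2 fold change of 0.49 ± 0.0467 (SE, adjusted p = 5.11e-06). Kif23 was 2.58, 2.41 and 2.21 FPKM in Nlrp3-/- and 3.62, 3.09 and 3.18 FPKM in wild-type control, a log2 fold change of -0.34. The granulocyte and fibroblast markers were several times higher in the same Nlrp3-/- control libraries, and 20 of the 35 tested rows of cell type markers passed both limits there, all as higher. These were 10 of granulocytes and their precursors, 6 of fibroblasts, 3 of erythroid cells and 1 of haematopoietic progenitors. Their part in the levels of the mitosis genes was not tested.

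After LPS+ATP the mitosis genes were higher in Nlrp3-/- than in wild-type BMDMs. Of the 39, 11 passed both limits as higher and 1 as lower, against 4.48% and 0.570% of all genes. At an adjusted p under 0.05 alone, 36 were higher, against 35.9% of all genes. The median log2 fold change was 0.74, beside 0.11 over all genes, and the median ratio of the mean FPKM values was 3.22. The 11 higher genes were Ccna2, Top2a, Cdc20, Ccnb2, Plk1, Kif20a, Ccnb1, Hmmr, Melk, Anln and Ube2c, and the lower gene was Pttg1.

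Ccna2 was 4.43, 4.04 and 4.54 FPKM in Nlrp3-/- and at most 0.905 FPKM in wild-type LPS+ATP libraries, with a log2 fold change of 1.59 ± 0.0608 (SE, limma, adjusted p = 3.93e-09) and a ratio of means of 5.62. Top2a was 6.14, 6.30 and 6.11 FPKM against 1.48, 1.55 and 1.39 FPKM, with a log2 fold change of 1.54 ± 0.0467 (adjusted p = 7.38e-10). For Cdc20 the log2 fold change was 1.53 ± 0.083 (adjusted p = 6.37e-08), and the 2 groups of libraries did not overlap for any of the 3. Hmmr, a spindle protein that also binds hyaluronan, was 2.19, 2.09 and 2.66 FPKM against 0.491, 0.555 and 0.454 FPKM. Anln (anillin), the scaffold of the cleavage furrow, was 1.92, 1.88 and 1.87 FPKM against 0.409, 0.393 and 0.460 FPKM. The ratio of means reached 7.37 for Cenpf, whose levels in wild-type LPS+ATP were 0.0761, 0.0806 and 0.0699 FPKM, and its log2 fold change was 0.53.

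On the log2(FPKM + 1) scale the smallest changes in size were those of Incenp, Kif23 and Mad2l1 (0.46). Incenp had nearly the same level in both stimulated groups (9.08, 8.87 and 9.33 FPKM in Nlrp3-/- and 8.97, 9.36 and 9.28 FPKM in wild-type), with a log2 fold change of -0.02 ± 0.0492 (SE, limma, adjusted p = 0.82) that turned to 0.0046 with TPM. Mki67 was lower in Nlrp3-/- cells by 0.46 ± 0.0376 (adjusted p = 1.54e-06). Kif23 differed by 0.35, with levels of 0.442, 0.395 and 0.520 FPKM against 0.0960, 0.167 and 0.152 FPKM. These levels lay under the pseudocount of 1, and the ratio of the Kif23 means, 3.27, was near the median of the 39 genes (3.22). Pttg1 was lower in Nlrp3-/- cells (8.10, 7.94 and 7.60 FPKM against 16.1, 17.0 and 18.3 FPKM), with a log2 fold change of -1.03, and -0.98 without replicate 3 of wild-type LPS+ATP. Ube2c stood near the limit as well (1.02), and was at 0.99 without replicate 2 or 3 of wild-type LPS+ATP and at 0.98 without replicate 3 of Nlrp3-/- LPS+ATP. The count of 12 genes was 35 with a pseudocount of 0.1 and 31 with TPM. With median-ratio scaling, upper-quartile scaling or a filter of 5 FPKM, 8 genes were higher and 1 lower.

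**Figure D4:**
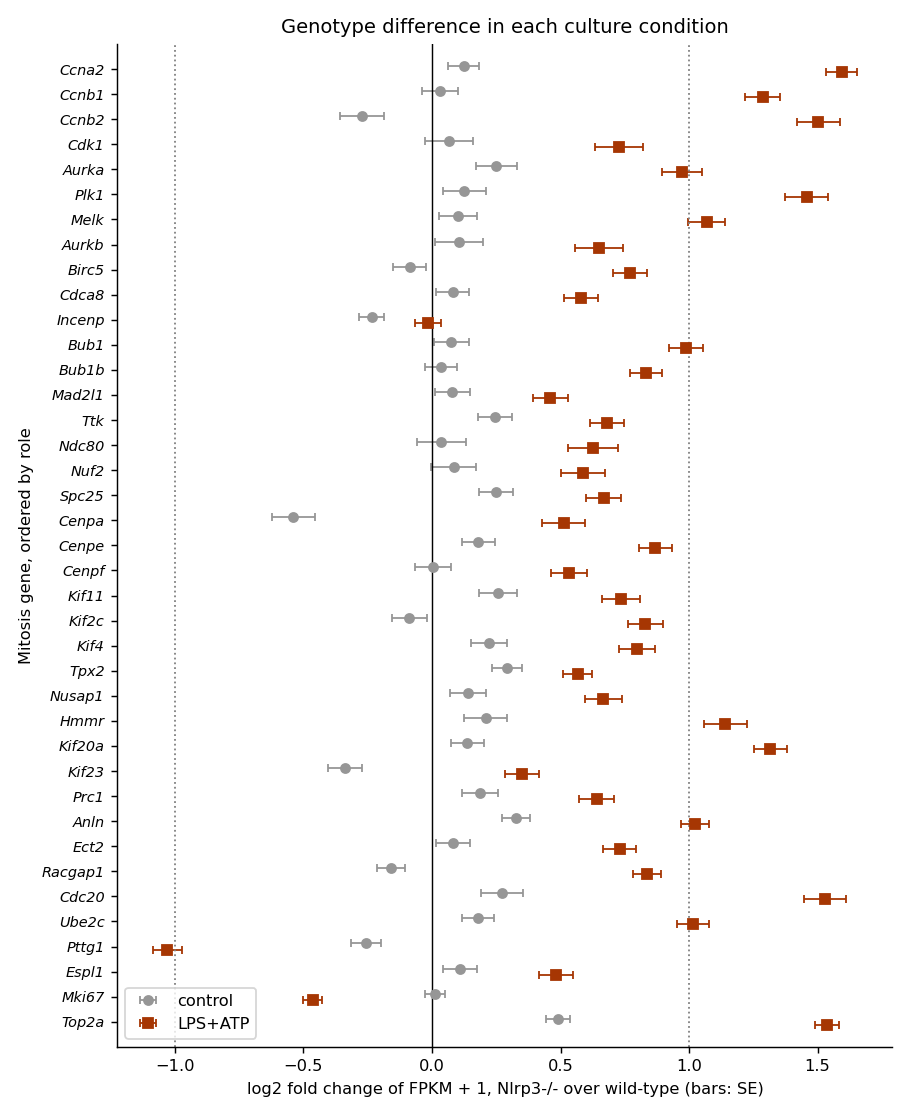
log2 fold change of FPKM + 1, Nlrp3-/- over wild-type, for each of the 39 genes in control (circles) and with LPS+ATP (squares), with the SE as bars and dotted lines at the limits of 1 and -1. The circles lie between -0.54 and 0.49, while 36 of the squares lie above 0 and those of Pttg1, Mki67 and Incenp lie below it (Incenp lies above it with TPM, at 0.0046).

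Granulocyte and fibroblast markers were also higher in the stimulated Nlrp3-/- libraries. There 13 of the 35 tested rows of markers passed both limits as higher, against 4.48% of all genes. These were 6 of fibroblasts, 6 of granulocytes and their precursors and 1 of erythroid cells. In the interaction 7 of the 35 (5 of granulocytes and their precursors and 2 of erythroid cells) were negative past both limits, as were 1.43% of all genes. Mpo, a granule enzyme of granulocyte precursors, was 58.4, 50.5 and 51.0 FPKM in Nlrp3-/- control and 0.623, 0.589 and 0.544 FPKM with LPS+ATP. Of the 8 fibroblast markers, 4 were higher and 3 lower in stimulated than in control Nlrp3-/- cells at an adjusted p under 0.05 (limma), each by less than 1 on the log2 scale. Of all genes, 53.8% were lower at that limit. The median log2 fold change of the 8 markers was 0.13, beside -0.24 over all genes. The part of cells with granulocyte or fibroblast markers in the mitotic transcripts was not tested.

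Further genes of mitosis were lower after LPS+ATP too. Of 92 further genes listed for condensin, cohesin, the anaphase-promoting complex, other kinetochore proteins, mitotic entry and the spindle, 87 were tested. In wild-type cells 42 of them fell past both limits (11.2% of all genes did), with a median log2 fold change of -0.95 beside -0.26 over all genes. In Nlrp3-/- cells 10 fell (8.21% of all genes did), with a median of -0.63 beside -0.24. In wild-type cells 6 of 8 condensin genes fell, as did 19 of 24 other spindle and cytokinesis genes. Of the 17 genes of the anaphase-promoting complex and its regulators 3 fell, with a median of -0.42. Cdc25b, the phosphatase that activates Cdk1, was 9.13, 9.28 and 8.86 FPKM in wild-type control and 0.771, 0.657 and 0.604 FPKM with LPS+ATP. It was 4.18, 4.80 and 3.79 FPKM in Nlrp3-/- control and 1.35, 1.04 and 0.922 FPKM with LPS+ATP, and its interaction of 1.27 was the largest of the list. In all, 4 of the 87 had a positive interaction past both limits, against 0.721% of all genes. Besides Cdc25b, a positive interaction was found for Cdca3 (1.17), Nek2 (1.08), a kinase that separates centrosomes, and Ncapg2 (1.08), a condensin subunit. That of Ncapg2 was 0.9986, 0.91 and 0.99 without replicate 1 of wild-type control, replicate 2 of Nlrp3-/- control or replicate 2 of Nlrp3-/- LPS+ATP, each under the limit. After LPS+ATP 3 of the 87 were higher past both limits in Nlrp3-/- than in wild-type cells, where 4.48% of all genes were. These were Pbk, Ckap2 and Gtse1. Ckap2 was under the limit, at 0.97 and 0.93, without replicate 3 of wild-type LPS+ATP or of Nlrp3-/- LPS+ATP.

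Genes of DNA replication, which precedes mitosis, fell in both genotypes. Of 20 tested, 18 fell past both limits in wild-type cells (median log2 fold change -1.46), where 11.2% of all genes did (median -0.26). In Nlrp3-/- cells 10 fell (median -1.003), where 8.21% of all genes did (median -0.24). After LPS+ATP 5 were higher in Nlrp3-/- cells, against 4.48% of all genes. A positive interaction was found for 3, against 0.721% of all genes, which were Uhrf1 (1.23), Rrm2 (1.20) and Mcm5 (1.101). Rrm2, the regulated subunit of ribonucleotide reductase, was 12.3, 12.3 and 11.9 FPKM in wild-type control and 1.46, 1.27 and 0.937 FPKM with LPS+ATP, then 16.2, 15.3 and 16.2 FPKM in Nlrp3-/- control and 5.55, 5.53 and 5.49 FPKM with LPS+ATP.

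Of 34 tested regulators of the cell cycle, 10 fell and 1 rose past both limits in wild-type cells, where 11.2% of all genes fell and 8.25% rose. In Nlrp3-/- cells 7 fell and 1 rose past them, where 8.21% of all genes fell and 6.64% rose. In the interaction 0 of the 34 passed both limits (limma), while 11 had an unadjusted p under 0.05. At an adjusted p under 0.05 alone, 4 were positive and 3 negative, against 14.7% and 13.0% of all genes. The factors that activate mitosis genes through the CHR were among the 34 regulators. Foxm1 fell in wild-type cells from 3.94, 3.44 and 3.49 FPKM to 0.360, 0.297 and 0.561 FPKM, by 1.72 ± 0.263 (SE) on the log2 scale (limma, adjusted p = 0.000102). In Nlrp3-/- cells its libraries scattered widely, at 1.69, 4.52 and 3.58 FPKM in control and 2.23, 0.852 and 0.801 FPKM with LPS+ATP, and the stimulation effect of -0.89 did not reach the limit. It was past both limits, at -1.19 and -1.16, without replicate 1 of Nlrp3-/- control or replicate 1 of Nlrp3-/- LPS+ATP. Mybl2 (B-Myb) was 1.83, 1.83 and 1.75 FPKM in wild-type control and 0.526, 0.819 and 0.644 FPKM with LPS+ATP, against 3.01, 2.38 and 3.20 FPKM and 2.06, 2.29 and 2.03 FPKM in Nlrp3-/- cells. The MuvB core genes Lin9, Lin37, Lin52 and Lin54 kept between 87.8% and 116% of their control level in wild-type cells and between 90.7% and 120% in Nlrp3-/- cells, while Rbbp4, another gene of this core, kept 66.2% and 70.2%, with log2 fold changes of -0.55 and -0.48 (limma, adjusted p = 2.70e-08 and 1.25e-07) that did not reach the limit of 1.

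Inhibitors of cyclin-dependent kinases moved in both directions. Cdkn1a (p21), which arrests the cell cycle and favours assembly of the repressive DREAM complex, was the only regulator that rose past both limits. It went from 25.8, 26.1 and 24.7 FPKM to 92.6, 97.9 and 96.7 FPKM in wild-type cells. In Nlrp3-/- cells it went from 31.2, 31.7 and 31.8 FPKM to 80.9, 80.6 and 80.0 FPKM. Its log2 fold changes were 1.86 ± 0.0309 and 1.32 ± 0.0309 (SE, limma). Cdkn1c fell to 9.39% and 6.32% and Cdkn2c to 7.66% and 21.6% of control in wild-type and Nlrp3-/- cells. Cdkn3, a phosphatase that acts on Cdk1 and Cdk2, fell in wild-type cells (11.02% left), and kept 39.7% in Nlrp3-/- cells, where its log2 fold change of -0.76 did not reach the limit. Past both limits, 3 of the 34 regulators were higher in Nlrp3-/- than in wild-type cells in each condition. The shares of all genes were 6.02% in control and 4.48% with LPS+ATP. These regulators were the inhibitors Cdkn2a and Cdkn2b and the cyclin Ccnd2. For Ccnd2 the log2 fold change was 2.06 in control and 1.43 with LPS+ATP. Cdkn2a was 1.18, 0.992 and 1.31 FPKM in wild-type and 5.60, 5.76 and 6.15 FPKM in Nlrp3-/- control. Ccnd1, the cyclin that links growth factor signals to the cycle, fell from 16.4, 15.5 and 14.6 FPKM to 1.72, 1.95 and 1.69 FPKM in wild-type and from 13.3, 13.6 and 13.5 FPKM to 2.38, 2.48 and 2.50 FPKM in Nlrp3-/- cells. E2f2, an activator of replication genes, kept 8.06% and 9.99%.

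**Figure D5:**
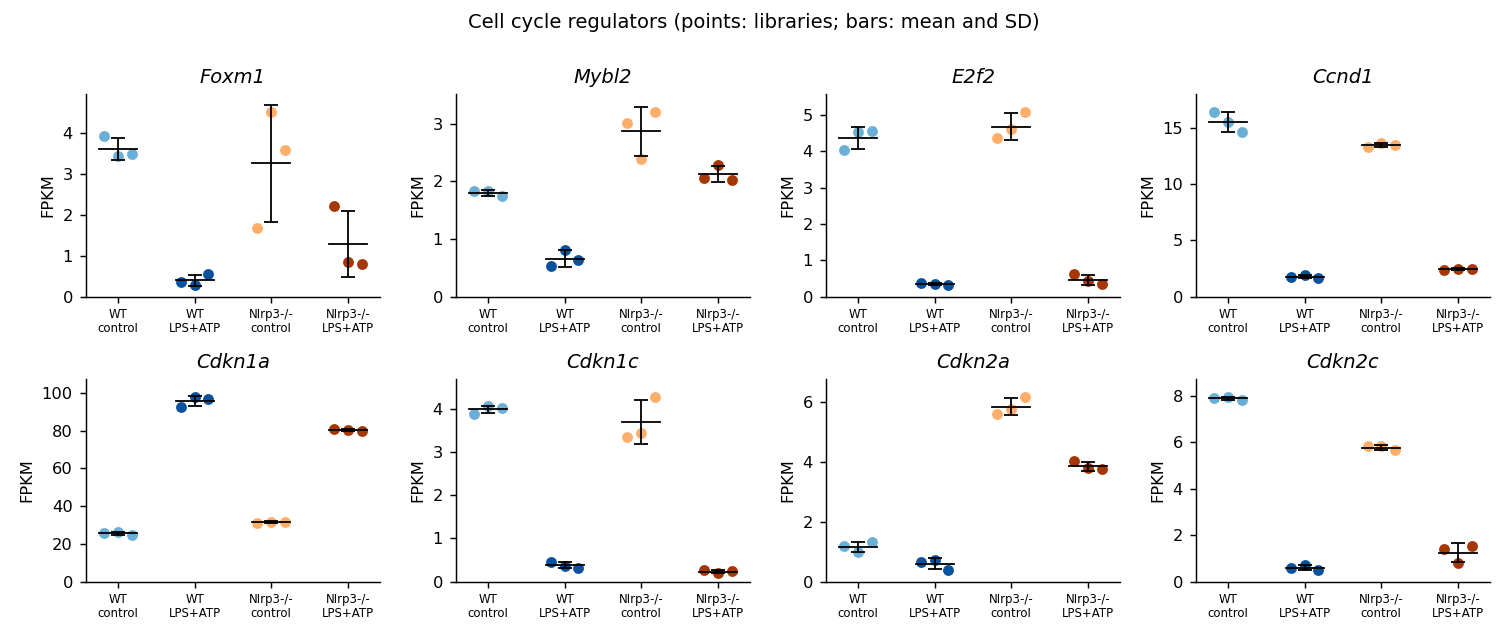
FPKM of 8 cell cycle regulators in the 4 groups; points are libraries (3 per group), horizontal lines the mean and bars the SD. E2f2, Ccnd1 and Cdkn1c drop in both genotypes, Cdkn1a rises in both, and Foxm1 scatters in Nlrp3-/- libraries.

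Counting could have shared reads for 11 members. By GENCODE M21 on GRCm38, 9 members share exonic bases with a gene on the opposite strand, from 2.84% of their exonic bases (Cdc20 with Elovl1) to 29.3% (Kif20a with Cdc23), and the sources used here do not say whether counting used strand. Ube2c shares 22.8% with Tnnc2 and Ccna2 12.5% with Exosc9. Top2a shares 1.35% with a small nucleolar RNA gene on its own strand. Ccnb1 has 3 near copies (Ccnb1-ps, Gm12856 and Gm8416) of at least 95% identity over at least 20% of its longest transcript. Mki67, Pttg1, Incenp and Tpx2 share exonic bases with no other gene by this annotation.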

How the data were processed

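The 12 RNA libraries were 3 each of wild-type and Nlrp3-/- BMDMs, unstimulated or given LPS+ATP. The authors deposited FPKM for 55335 genes. The aligner and counter are not given in the sources used here, and the submitters' processing notes name DESeq2 1.24.0 and the build GRCm39, which is not that of the annotation used here. The number of unused columns of per-library values was 0. FPKM gives no read numbers, so depth is known only in relative terms.

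The 12622 genes with 3 or more libraries at 1 FPKM or above entered a fit by limma 3.58.1 (run in R 4.3.3) of log2(FPKM + 1), which estimated the 4 group means from all 12 libraries with a trend in the variance. Called genes had a Benjamini-Hochberg adjusted p under 0.05, over all genes tested, and changed by 1 or more on the log2 scale. The fit was first tested on simulated data. Lists had no test of their own. The members and lists were chosen with earlier results of these data known, so no pattern here is independent support for those results. Values per library are given for the most abundant member of each of 9 roles and, in each comparison, for most of the 3 members with the largest and the 3 with the smallest change. Of the other lists, the 4 largest called changes per comparison could be named. A few further members are shown as examples of their role, chosen after their values were seen. Positions came from GENCODE M21 (GRCm38), promoters from RefSeq (GRCm38.p6), and near copies from blastn 2.17.0+. Tables and plots used Python 3.11.15, pandas 2.3.3, numpy 2.4.6 and matplotlib 3.10.9. Alternatives changed the pseudocount to 0.1, raised the filter to 5 FPKM or dropped it, dropped the fold limit or the variance trend, rescaled the libraries (to TPM, by median ratios, by upper quartiles), added the replicate number as a block, fitted the compared groups alone, or left out each library in turn. The count of members whose sign turns under each scaling was added after the data were seen.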

Additional observations from a re-analysis of the deposited data

Results flagged for a closer look

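The response to LPS+ATP differed between genotypes past both limits (adjusted p under 0.05 in limma's interaction and a difference of at least 1 on the log2 scale) in 8 of the 39 mitosis genes, in each case with a smaller fall in Nlrp3-/- cells. The differences were 1.78 for Ccnb2, 1.47 for Ccna2, 1.33 for Plk1, 1.26 for Cdc20, 1.25 for Ccnb1, 1.18 for Kif20a, 1.05 for Cenpa and 1.05 for Top2a. The same held for 7 genes of the lists set beside them. They were 4 of 87 further mitosis genes and 3 of 20 genes of DNA replication, while 0 of 34 regulators passed. Of all genes tested, 0.721% had a positive difference past both limits. The differences of the 7 genes were 1.27 for Cdc25b, 1.23 for Uhrf1, 1.20 for Rrm2, 1.17 for Cdca3, 1.101 for Mcm5, 1.08 for Nek2 and 1.08 for Ncapg2. Cenpa was at 0.95 without replicate 1 of Nlrp3-/- control, and Ncapg2 at 0.9986, 0.91 and 0.99 without replicate 1 of wild-type control, replicate 2 of Nlrp3-/- control or replicate 2 of Nlrp3-/- LPS+ATP, all under the limit. Sex of the mice and levels of granulocyte and fibroblast markers went with genotype in these libraries, and their part was not tested.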

How the results depend on the processing

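Main counts of mitosis genes called were 35 (stimulation in wild-type), 16 (stimulation in Nlrp3-/-), 0 (genotype in control), 12 (genotype with LPS+ATP) and 8 (interaction). With a pseudocount of 0.1 they were 28 in stimulated Nlrp3-/- cells, 35 for genotype with LPS+ATP and 31 for the interaction. With TPM they were 31 for genotype with LPS+ATP and 27 for the interaction. With median-ratio or upper-quartile scaling 7 genes were called in stimulated Nlrp3-/- cells, and 8 as higher and 1 as lower for genotype with LPS+ATP. The filter of FPKM at least 5 left 17 members to test, and 14 and 10 were called in stimulated wild-type and Nlrp3-/- cells. Without the fold limit 39 were called in stimulated Nlrp3-/- cells, 18 for genotype in control, 38 for genotype with LPS+ATP and 39 for the interaction.

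The median log2 fold changes, in the order of stimulation in wild-type, stimulation in Nlrp3-/-, genotype with LPS+ATP and interaction, were -2.63, -1.22, 1.49 and 1.39 with a pseudocount of 0.1, -2.10, -1.10, 0.97 and 0.99 with the higher filter, -2.23, -1.06, 1.237 and 1.14 with TPM, -1.43, -0.64, 0.70 and 0.75 with median-ratio scaling and -1.46, -0.64, 0.68 and 0.78 with upper-quartile scaling. For genotype in control the median was 0.0355 with the higher filter, -0.0213 with median-ratio and -0.0808 with upper-quartile scaling. Leaving out each library moved the median of stimulation in Nlrp3-/- between -0.92 and -0.85 and that of genotype with LPS+ATP between 0.72 and 0.78. Counts over these fits ran from 34 to 36, 16 to 17, 10 to 14 and 8 to 9, with 0 in every fit for genotype in control. Of 113 single-gene results, Mki67 in stimulated wild-type cells ranged from -0.0042 (without replicate 1 of wild-type LPS+ATP) to 0.0428 over these fits, and Incenp for genotype with LPS+ATP had 0.0046 with TPM. Median-ratio and upper-quartile scaling ended 9 and 10 of their calls. The replicate numbers do not pair the libraries (correlations of same-numbered deviations between -0.0565 and 0.0528), and with the replicate block 35, 16, 0, 12 and 8 mitosis genes were called.

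FPKM without read numbers limits what can be said of genes under 1 FPKM, where most mitosis genes stood in stimulated wild-type cells: their log2 fold changes shrink towards 0 with the pseudocount, and the counts for stimulated Nlrp3-/- cells, genotype with LPS+ATP and the interaction depend on it. With 3 libraries per group and no sign of separate cultures, p-values speak for these libraries only. Causes of the changes between settings were not tested beyond the pseudocount's and the filter's own construction.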
